A study of Mus musculus with 10 samples.

Results

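Iron and heme handling was followed here through 9 genes of the intestinal epithelium, all 9 of them present among the 54532 genes of the deposited table and all 9 past the filter on low counts that left 15703 genes. They were chosen by name for their role, but with earlier results of these data known. They are the uptake genes Slc11a2, Cybrd1, Tfrc and Slc46a1, the ferritin genes Fth1 and Ftl1, the export genes Slc40a1 and Heph, and the heme oxygenase gene Hmox1. Epithelial cells of the small intestine were sorted from 5 litter-matched mice, 10 weeks old, of the CD1/ICR strain and carrying Gucy2c-GFP, a reporter in which GFP is driven by the promoter of Gucy2c, the gene of the guanylate cyclase C receptor. From each mouse, 20000 cells of high GFP fluorescence (GUCY2Chi) and 20000 cells of medium fluorescence (GUCY2Cmed, labelled both Medium and Lo) gave 1 RNA library each, 5 libraries per group. Both groups carry the reporter, no mouse received a treatment, and GUCY2Cmed cells are the bulk epithelium of that gate rather than 1 cell type. In both groups the libraries are numbered 2, 7, 12, 14 and 15, and each number was read as that of a mouse.

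Dietary non-heme iron enters an enterocyte, the absorptive cell of the intestinal lining, after reduction at the brush border by duodenal cytochrome b (Cybrd1) and transport by the divalent metal transporter DMT1 (Slc11a2). Inside the cell iron is used, stored in ferritin shells built of heavy (Fth1) and light (Ftl1) chains, or passed to plasma by ferroportin (Slc40a1), the only known mammalian iron exporter, with hephaestin (Heph) as the ferroxidase. The transferrin receptor (Tfrc) takes up iron from plasma, most strongly in dividing cells, and heme oxygenase 1 (Hmox1) releases iron from heme. Slc46a1 was first described as a heme carrier and is the proton-coupled folate transporter.

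Several of these transcripts are controlled through iron-responsive elements, hairpins to which the iron regulatory proteins bind when the cell is short of iron. A hairpin ahead of the coding sequence blocks translation, and hairpins behind it protect the transcript of Tfrc, so the protein of a ferritin gene can change while its RNA does not. The hairpins are shown because they are the sequence feature that 4 of the 9 genes share. Coding transcripts of GENCODE vM1, which is drawn on NCBIM37, were searched on the sense strand for CNNNNNCAGTGN with the 5 bases between the C and the loop paired to the 5 that follow it, G with T allowed. Each line gives the gene, the untranslated region and the position in the transcript, 5′ to 3′ with T for U. Capitals mark the unpaired C and the 6 bases of the loop.
Fth1, 5′ UTR, bases 30 to 58: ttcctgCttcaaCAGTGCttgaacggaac
Ftl1, 5′ UTR, bases 78 to 106: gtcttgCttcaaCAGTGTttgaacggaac
Slc40a1, 5′ UTR, bases 102 to 130: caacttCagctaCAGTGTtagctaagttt
Tfrc, 3′ UTR, bases 3315 to 3343: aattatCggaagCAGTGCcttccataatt
Tfrc, 3′ UTR, bases 3694 to 3722: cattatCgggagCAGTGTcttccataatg
Tfrc, 3′ UTR, bases 3759 to 3787: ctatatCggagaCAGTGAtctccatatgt
Tfrc, 3′ UTR, bases 3806 to 3834: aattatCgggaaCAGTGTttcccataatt
The search found 1 hairpin each in Fth1, Ftl1 and Slc40a1, all in the 5′ UTR, and 4 in the 3′ UTR of Tfrc. The pattern was not matched in transcripts of Slc11a2, Cybrd1, Heph, Hmox1 or Slc46a1. Some Slc11a2 transcripts are known to carry an element of a less regular shape, which this pattern does not cover. Of 22611 genes with a coding transcript, 0.146% held such a hairpin starting in a 5′ UTR, 0.548% in a 3′ UTR and 0.615% in the coding sequence.

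Gene counts summed to 13090212 to 13520800 reads in GUCY2Chi libraries and to 10903958 to 15307932 in GUCY2Cmed libraries. The labelled receptor gene Gucy2c ranged from 549 to 1757 cpm (counts scaled to library size, here after TMM normalization) in GUCY2Chi libraries and from 323 to 483 cpm in GUCY2Cmed libraries. All 16 enteroendocrine marker genes rose in GUCY2Chi cells, with a median log2 fold change of 8.60. The summed level of 20 enterocyte markers was 65116 to 86494 cpm in GUCY2Cmed libraries, 4906 to 6739 cpm in the GUCY2Chi libraries of mice 2, 7 and 14, and 35642 and 36190.3 cpm in those of mice 12 and 15, so these last 2 stood apart. Of these markers 5 fell in edgeR (median log2 fold change -2.20), 14 in limma-voom and 17 in DESeq2. Results are therefore also given without mice 12 and 15. Forebrain neuron markers, foreign to this tissue, summed to 27.9 to 1195 cpm in GUCY2Chi and 12.3 to 658 cpm in GUCY2Cmed libraries, and lymphocyte markers to 17.4 to 202 and 22.8 to 128 cpm. Of these, 0 of 8 and 0 of 5 tested passed in edgeR, limma-voom or DESeq2, and 0 had an unadjusted p under 0.05 in edgeR.

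Of the 9 genes, 7 had less RNA in GUCY2Chi than in GUCY2Cmed cells of every mouse: the uptake genes Slc11a2, Tfrc and Slc46a1, both ferritin genes and both export genes. The share of all genes that were lower in every mouse is not given here. Tfrc, Heph and Slc11a2 fell, from a mean of 63.6 ± 8.76 to 19.9 ± 9.58 cpm (SD, n = 5), from 111.6 ± 28.7 to 33.4 ± 18.3 cpm and from 56.5 ± 10.6 to 20.2 ± 9.46 cpm. In edgeR 0 of the 9 genes rose, as in limma-voom and DESeq2, and 1 of them, Hmox1, was higher at an unadjusted p under 0.05. A call needed an adjusted p under 0.01 from edgeR's quasi-likelihood test over all 15703 genes. The 3 genes that passed were all lower, beside 8.79% of all genes called lower and 13.9% called higher. The levels of 5 genes (Slc11a2, Tfrc, Heph, Slc40a1 and Fth1) did not overlap between the groups, each lower in GUCY2Chi cells, beside 13.2% of all genes that were lower without overlap and 16.7% that were higher. Over the 9 genes the median log2 fold change was -1.54, beside 0.094 over all genes tested. Of the 9 values 8 were below 0, beside 7129 of the 15703 genes tested. The 4 genes with a hairpin lay between -1.68 and -0.65 and the 5 without a match between -2.16 and 1.495. In RNA of sorted populations, fewer cells that use a gene and less of its RNA per cell cannot be told apart.

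**Figure D1:**
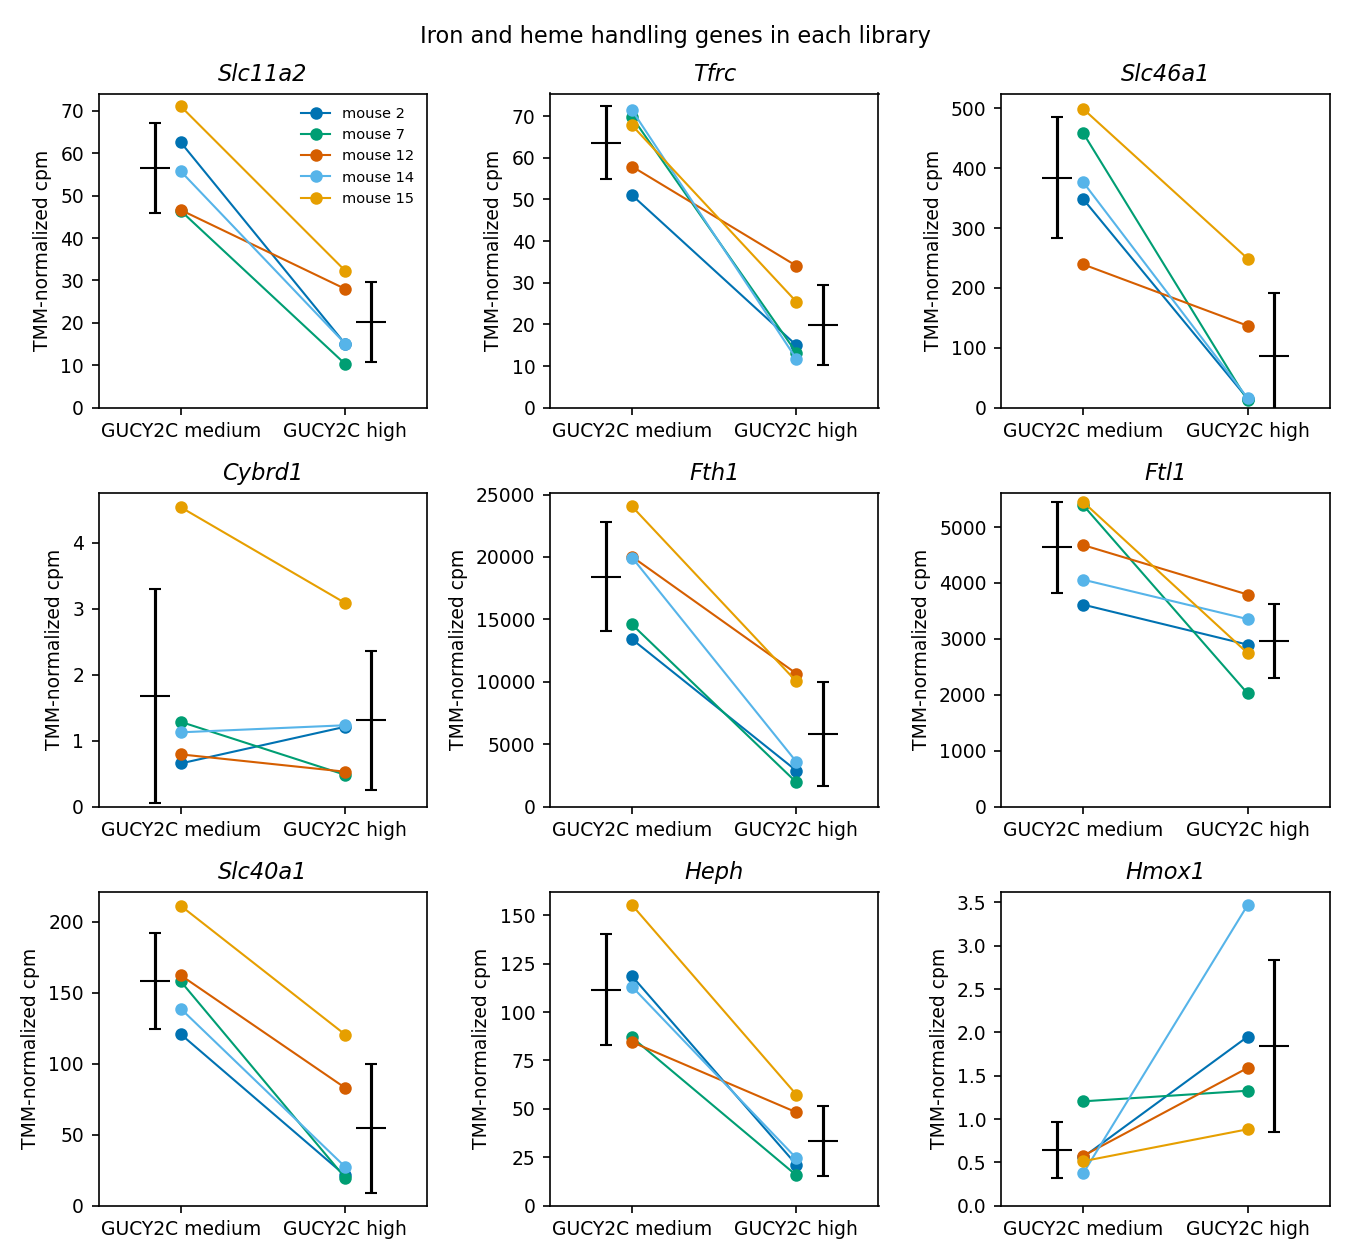
TMM-normalized cpm of the 9 genes in each library, GUCY2C medium at the left and GUCY2C high at the right of each panel. Points are libraries, lines join the libraries of 1 mouse, and black bars give the mean ± SD of 5 libraries, the bar of Slc46a1 in GUCY2C high cells being cut at 0. The lines of Slc11a2, Tfrc, Slc46a1, Fth1, Ftl1, Slc40a1 and Heph go down in all 5 mice, and mice 12 and 15 are the highest 2 GUCY2C high points for Slc11a2, Tfrc, Slc46a1, Fth1, Slc40a1 and Heph.

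Among the uptake genes, Slc11a2 (ENSMUSG00000023030; GRCm38 chromosome 15 from 100387898 to 100425072) was at 62.5, 46.4, 46.6, 55.7 and 71.0 cpm in the GUCY2Cmed libraries of mice 2, 7, 12, 14 and 15. In GUCY2Chi libraries, in the same order, it was at 15.1, 10.3, 28.0, 15.1 and 32.3 cpm. The highest GUCY2Chi library lay below the lowest GUCY2Cmed library. The gene fell by 1.49 on the log2 scale (SE 0.30, adjusted p = 0.00309 from edgeR). The standard error (SE) was derived as the size of the log2 fold change over the square root of edgeR's F statistic. An exact two-sided permutation test gave p = 0.00794, the smallest that 5 libraries against 5 allow. Any gene whose groups do not overlap gets this value, so it only restates the lack of overlap. Here and below, permutation p-values are not adjusted for the number of genes and are not to be read against the threshold for a call. The permutation test exchanged all 10 libraries freely for each gene, and an exact test that exchanges only the 2 libraries of each mouse could not give a p below 0.0625. The call was lost without the GUCY2Chi library of mouse 2 (adjusted p = 0.0135) and without the GUCY2Cmed library of mouse 2 (0.0117) or mouse 15 (0.0143).

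Tfrc (ENSMUSG00000022797; chromosome 16 from 32608920 to 32632794), whose transcript carries the 4 hairpins shown, had 51.0, 69.8, 57.9, 71.4 and 67.8 cpm in GUCY2Cmed libraries. Its GUCY2Chi values were 14.995, 13.2, 34.1, 11.7 and 25.4 cpm, again with no overlap and with mouse 12 the highest. Tfrc fell by 1.68 on the log2 scale (SE 0.29, adjusted p = 0.00134 from edgeR; exact permutation test, p = 0.00794), and it was the 1 gene of the 9 that kept its call in all 10 fits that left out a library. Proliferation markers moved in the same direction: 12 of 15 fell (median log2 fold change -1.53), or 1 with the mouse number as a block, and their summed level was 130 to 312 cpm in GUCY2Chi and 381 to 882 cpm in GUCY2Cmed libraries. The part of dividing cells in the result for Tfrc was not tested.

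Slc46a1 (ENSMUSG00000020829; chromosome 11 from 78465697 to 78472059) had 348, 458, 239, 376 and 499 cpm in GUCY2Cmed libraries. In GUCY2Chi libraries it had 15.1, 12.1, 137, 16.03 and 249 cpm. Mice 2, 7 and 14 thus lay close together and mice 12 and 15 far above them. The GUCY2Chi library of mouse 15 at 249 cpm reached past mouse 12's GUCY2Cmed library at 239 cpm, the only overlap between the groups. The log2 fold change was -2.16 (SE 0.80), the largest in size of the 9, but its adjusted p of 0.0511 from edgeR missed the threshold (exact permutation test, p = 0.0159). Limma-voom, which called 11.4% of all genes lower and 13.6% higher, gave -3.23 with an adjusted p of 0.00854. Without the GUCY2Chi library of mouse 15, edgeR gave -3.06 with an adjusted p of 0.00803.

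Cybrd1 (ENSMUSG00000027015; chromosome 2 from 71117923 to 71142926), the brush border ferric reductase gene, had few reads in both groups. GUCY2Cmed libraries had 0.655, 1.28, 0.792, 1.13 and 4.54 cpm, and GUCY2Chi libraries 1.21, 0.482, 0.530, 1.23 and 3.09 cpm, which is 7 to 53 and 7 to 49 reads. In both groups mouse 15 was the highest. The log2 fold change of -0.35 (SE 0.66, adjusted p = 0.729 from edgeR) was smaller than its error, and it was 0.49 without the GUCY2Cmed library of mouse 15 and 0.0082 with library size alone as normalization. At these read numbers and this spread between mice, no difference in Cybrd1 was detected.

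Ferritin took a large share of the RNA. Fth1 (ENSMUSG00000024661; chromosome 19 from 9982703 to 9985092), the chain with ferroxidase activity, made up 1.31% to 1.97% of all counts in GUCY2Cmed libraries and 0.245% to 1.19% in GUCY2Chi libraries. Its levels were 13406, 14589.8, 20017, 19953 and 24041 cpm in GUCY2Cmed cells and 2885, 1951, 10660.5, 3598 and 10029 cpm in GUCY2Chi cells, without overlap. Mice 12 and 15 were far above the other 3 GUCY2Chi libraries. The log2 fold change was -1.66 (SE 0.51, adjusted p = 0.0234 from edgeR; exact permutation test, p = 0.00794), short of the threshold. The adjusted p was past it in limma-voom (0.00682) and in DESeq2 (0.00198).

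Ftl1 (ENSMUSG00000050708; chromosome 7 from 45457944 to 45459884), the light chain that aids iron core formation, differed least among the abundant genes. It was at 3611, 5387, 4676, 4058 and 5446 cpm in GUCY2Cmed libraries and at 2897, 2024, 3793, 3353 and 2745 cpm in GUCY2Chi libraries, with the GUCY2Chi library of mouse 12 inside the GUCY2Cmed range. All 5 mice had less in GUCY2Chi cells. The log2 fold change was -0.65 (SE 0.26, adjusted p = 0.0704 from edgeR; exact permutation test, p = 0.0159), and DESeq2 gave an adjusted p of 0.00899. Reads of ferritin genes can also match their processed copies: the row Ftl1-ps1 held 265 to 862 reads per library, against 33573 or more for Ftl1, the other copies of either chain at most 15, and adding them to the parent genes changed no call.

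Both export genes had less RNA in the GUCY2Chi cells of all 5 mice. Heph (ENSMUSG00000031209; chromosome X from 96455359 to 96574485) had 119, 86.9, 84.5, 113 and 155 cpm in GUCY2Cmed libraries and 21.2, 15.7, 48.2, 24.5 and 57.4 cpm in GUCY2Chi libraries, with no overlap. It fell by 1.74 on the log2 scale (SE 0.35, adjusted p = 0.0031 from edgeR; exact permutation test, p = 0.00794). The call was lost without the GUCY2Chi library of mouse 2 (adjusted p = 0.0123) and without the GUCY2Cmed library of mouse 2 (0.0110) or mouse 15 (0.0139).

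Slc40a1 (ENSMUSG00000025993; chromosome 1 from 45908068 to 45926523) had 120.7, 158, 162, 139 and 211 cpm in GUCY2Cmed libraries and 21.3, 19.7, 83.0, 27.4 and 120.5 cpm in GUCY2Chi libraries. The groups were next to each other without overlap, 120.5 cpm in the highest GUCY2Chi library against 120.7 cpm in the lowest GUCY2Cmed library. The log2 fold change was -1.54 (SE 0.49, adjusted p = 0.0273 from edgeR; exact permutation test, p = 0.00794), short of the threshold. With the mouse number as a block in edgeR, which called 8.24% of all genes higher and 4.96% lower, Slc40a1 was at -1.92 with an adjusted p of 0.00957 and passed. It also passed in limma-voom (0.00807), in DESeq2 (0.00957) and without the GUCY2Chi library of mouse 15 (-2.03, adjusted p = 0.00381).

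Hmox1 (ENSMUSG00000005413; chromosome 8 from 75093621 to 75100589) was the gene of the 9 with more RNA in GUCY2Chi libraries, at 1.95, 1.33, 1.59, 3.47 and 0.882 cpm against 0.562, 1.20, 0.576, 0.375 and 0.514 cpm. Each mouse had more in GUCY2Chi cells, and the groups overlapped through the GUCY2Cmed library of mouse 7. The values rest on 14 to 45 reads in GUCY2Chi and 5 to 15 reads in GUCY2Cmed libraries. The log2 fold change was 1.495 (SE 0.48, adjusted p = 0.0276 from edgeR; exact permutation test, p = 0.0159) and was not called in any of limma-voom, DESeq2 or the fit with a block. Macrophages, rich in Hmox1, were followed by 9 markers: Cd163 was at 0 in all libraries, Adgre1 did not exceed 0.0603 cpm, and 1 of 5 tested genes, C1qa, rose, with 13.7 to 108 cpm in GUCY2Chi against 0.0803 to 1.40 cpm in GUCY2Cmed libraries while C1qb and C1qc stayed at or below 1.32 and 2.33 cpm. The 9 markers summed to 20.3 to 111 cpm in GUCY2Chi and 2.33 to 6.41 cpm in GUCY2Cmed libraries. Most of this sum was C1qa in each GUCY2Chi library, so it does not show a rise of the whole list. The other tested markers did not pass in edgeR: Lyz2 differed by 1.47 on the log2 scale, C1qc by 0.58, C1qb by 0.032 and Cd68 by -0.30. Their adjusted p-values were 0.0796, 0.715, 0.986 and 0.743. Csf1r did not exceed 0.655 cpm in any library, nor Mrc1 0.308 cpm. The part of macrophages in the values of Hmox1 was not tested.

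Within each mouse, the level in GUCY2Chi cells was also taken as a percent of the level in GUCY2Cmed cells. In mice 2, 7 and 14, Slc46a1 was at 4.33%, 2.63% and 4.26%, below the summed enterocyte markers at 7.34%, 7.53% and 8.70%. Fth1 was at 21.5%, 13.4% and 18.0% in these mice, Slc40a1 at 17.7%, 12.5% and 19.7%, Heph at 17.9%, 18.0% and 21.7%, Slc11a2 at 24.1%, 22.2% and 27.1% and Tfrc at 29.4%, 18.9% and 16.4%. In these mice all 5 of these genes kept a larger share of their GUCY2Cmed level than the summed enterocyte markers did. The sum weighs the most abundant markers most, and the genes were not set against single markers here. In mouse 12 the enterocyte markers were at 46.3% and Slc46a1, Fth1, Slc40a1, Heph, Slc11a2 and Tfrc at 51.2% to 60.1%, and in mouse 15 at 42.2% and 37.0% to 57.1%. The part of enterocytes in the GUCY2Chi gate in these values was not tested. Ftl1 did not follow the split between mice: it was at 80.2%, 37.6%, 81.1%, 82.6% and 50.4% in mice 2, 7, 12, 14 and 15.

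**Figure D2:**
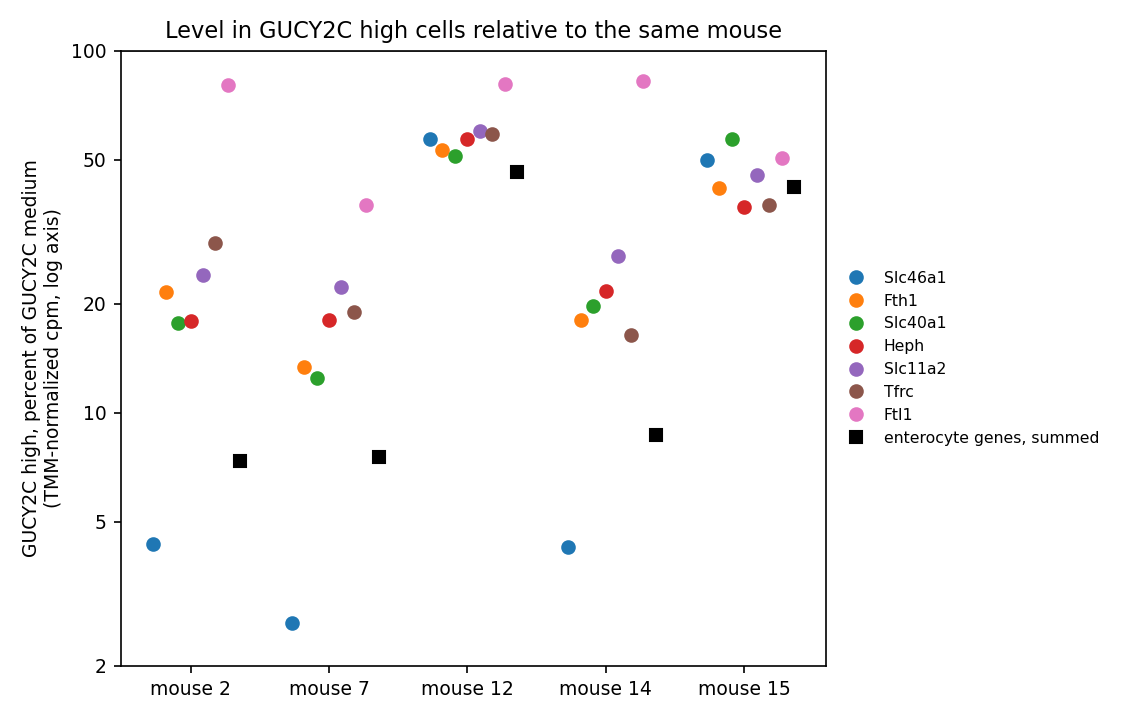
Level in GUCY2C high cells as a percent of the level in GUCY2C medium cells of the same mouse, on a log axis. Coloured points are 7 of the 9 genes and black squares the summed 20 enterocyte markers. In mice 2, 7 and 14 Slc46a1 lies below the black square and the other 6 genes above it, and in mice 12 and 15 all points lie between 37.0% and 81.1%.

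Without mice 12 and 15, where 11.7% of 14816 genes were called higher and 10.7% lower, 6 of the 9 genes fell. Slc46a1 had a log2 fold change of -4.78 (SE 0.23, adjusted p = 4.75e-05 from edgeR), Slc40a1 of -2.61 (adjusted p = 1.48e-04), Fth1 of -2.51 (0.0018), Heph of -2.38 (3.19e-04), Tfrc of -2.27 (3.06e-04) and Slc11a2 of -2.03 (5.51e-04). Ftl1 was at -0.66 (0.128), Hmox1 at 1.64 (0.0851) and Cybrd1 at -0.083 (0.928). The mice left out were those with the highest enterocyte marker levels in the GUCY2Chi gate, so this comparison is a description of the other 3 and not an independent test.

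**Figure D3:**
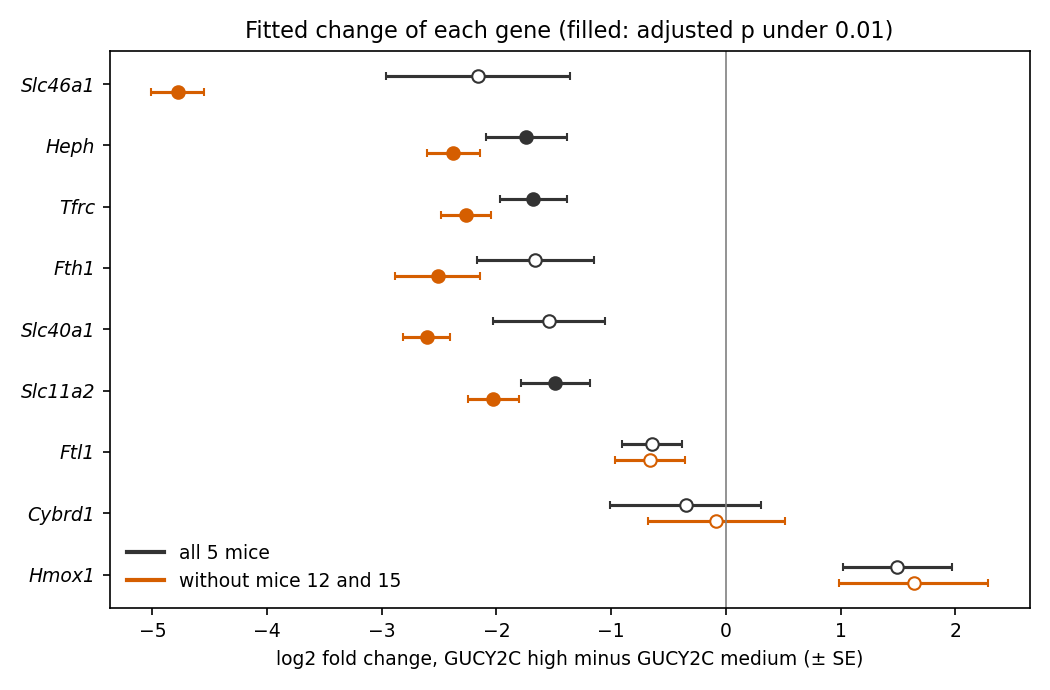
Fitted log2 fold change (GUCY2C high minus GUCY2C medium, ± SE, edgeR) of the 9 genes with all 5 mice (dark) and without mice 12 and 15 (orange), filled where the adjusted p was under 0.01. With 5 mice Heph, Tfrc and Slc11a2 are filled, without mice 12 and 15 also Slc46a1, Fth1 and Slc40a1, and Slc46a1 moves from -2.16 to -4.78.

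Levels were compared between genes in FPKM, a count scaled by gene length and by library size. In GUCY2Cmed cells Fth1 was at 19078 ± 3370 FPKM (SD, n = 5), place 2 among all genes, and Ftl1 at 5528 ± 831, place 14. Slc46a1 followed at 228 ± 55.1 FPKM, Slc40a1 at 94.2 ± 14.5, Slc11a2 at 38.0 ± 6.34, Tfrc at 32.1 ± 3.88, Heph at 27.2 ± 5.88, Hmox1 at 0.506 ± 0.268 and Cybrd1 at 0.273 ± 0.241. The ranges of Slc11a2 and Tfrc, of Tfrc and Heph and of Hmox1 and Cybrd1 overlapped, so these neighbours were not separated, and the other neighbours did not overlap.

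In GUCY2Chi cells the order of mean FPKM was the same but less sharp, and single libraries differed from it. Slc46a1 exceeded Slc40a1 in 2 of 5 GUCY2Chi libraries, those of mice 12 and 15. In mice 2, 7 and 14 Slc46a1 was at 10.9, 9.97 and 10.5 FPKM and Slc40a1 at 15.5, 16.4 and 18.0. Fth1 was at 7315 ± 5223 FPKM (place 13 among all genes) and Ftl1 at 4241 ± 572 (place 18). In FPKM, Fth1 exceeded Ftl1 in 2 of 5 GUCY2Chi libraries, those of mice 12 and 15, and in 5 of 5 GUCY2Cmed libraries. Per kilobase of the gene length listed in the table, which is greater for Ftl1 than the length its FPKM imply, it did so in 5 of 5 libraries of both groups. Slc46a1 averaged 63.1 ± 81.2 FPKM, Slc40a1 39.8 ± 34.9, Slc11a2 16.5 ± 8.02, Tfrc 12.1 ± 5.39, Heph 9.91 ± 5.64, Hmox1 1.69 ± 0.774 and Cybrd1 0.276 ± 0.240. Ranges overlapped for every neighbouring pair from Slc46a1 down to Heph, while Heph, Hmox1 and Cybrd1 were separate.

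**Figure D4:**
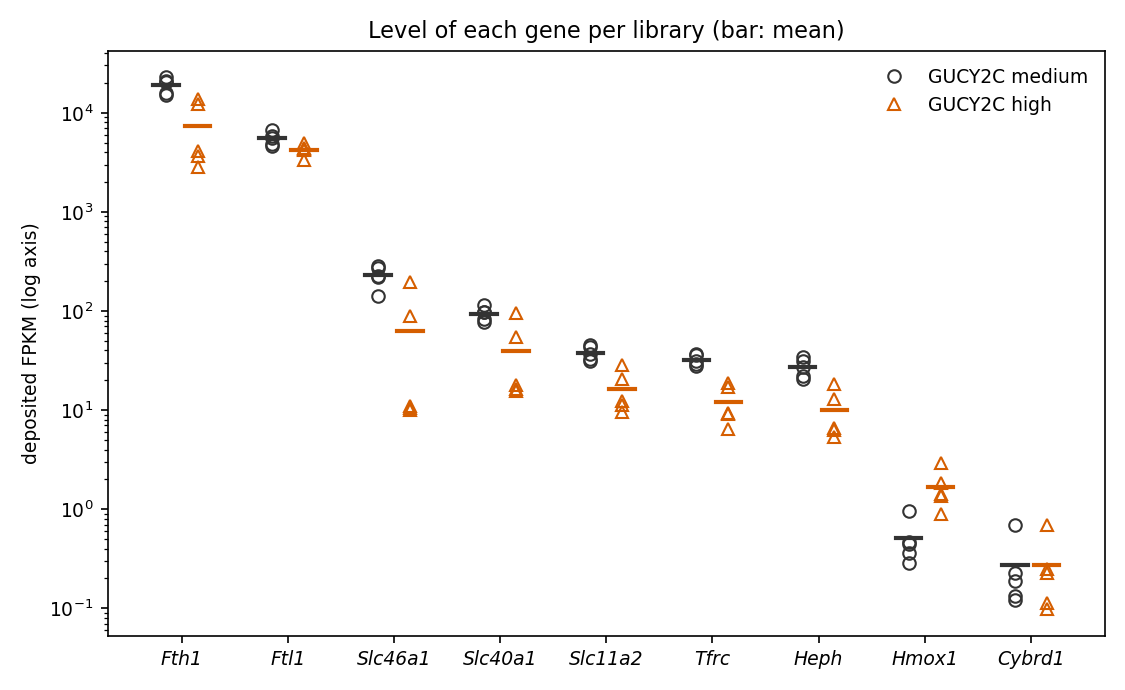
Deposited FPKM of the 9 genes in each library on a log axis, in the order of their mean in GUCY2C medium cells, with circles for GUCY2C medium, triangles for GUCY2C high and a bar at each mean of 5 libraries. The ferritin genes lie far above the others in both groups, and the triangles of Slc46a1, Slc40a1 and Fth1 split into 3 low and 2 high libraries.

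Both ferritin chains were also set against each other. The ratio of Fth1 to Ftl1 in FPKM was 3.25, 2.37, 3.75, 4.30 and 3.86 in the GUCY2Cmed libraries of mice 2, 7, 12, 14 and 15. In GUCY2Chi libraries it was 0.872, 0.844, 2.46, 0.939 and 3.20, below every GUCY2Cmed value in mice 2, 7 and 14. Which chain led in these 3 libraries depends on the length used, since per kilobase of listed length their ratios were 1.54, 1.49 and 1.66. The mean was 3.51 ± 0.74 against 1.66 ± 1.10, and no test was made of it. The ratio of Tfrc to Fth1 in FPKM was 0.00136 to 0.00231 in GUCY2Cmed and 0.00123 to 0.00327 in GUCY2Chi libraries, and these ranges overlapped. It is a ratio of RNA, whereas the hairpin of Fth1 acts on translation.

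By the pattern over the 10 libraries, which contains the difference between the groups, Slc11a2 and Heph were each other's closest gene (Pearson r = 0.998 of log2 cpm). Slc46a1 was closest to Sectm1b (r = 0.998), Slc40a1 to Ces2c (r = 0.995), Fth1 to Slc39a5 (r = 0.996), Tfrc to Cisd3 (r = 0.992), Ftl1 to Actb (r = 0.992), and Hmox1 to Lin52 (r = 0.979). Next to these came Slc2a2 and Slc7a9 for Slc40a1, Gm8615 and Cs for Slc11a2, Lpcat3 and Cs for Heph, Ces2c and Bst1 for Slc46a1, Dlat and Xpnpep1 for Tfrc, Slc35c2 and Mgam2-ps for Fth1, Acer3 and Eif6 for Ftl1, and Cnpy4 for Hmox1. Ints8 and Retnlb were among the 3 closest to Cybrd1. Ces2c was among the 3 closest genes of both Slc40a1 and Slc46a1, and Cs, the gene of citrate synthase, of both Slc11a2 and Heph. Slc2a2, a basolateral sugar transporter gene on the enterocyte list, was among the 3 closest to Slc40a1 (r = 0.993).

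Of 53 further genes in 6 lists of iron and heme pathways, 47 were tested, 5 rose and 13 fell, with a median log2 fold change of -0.44. Over all genes tested 13.9% rose and 8.79% fell, with a median of 0.094, and the counts of each list are to be read beside these shares. The 18 were spread over all 6 lists. Of those that rose, Ltf and Hpx passed the filter on low counts only through GUCY2Chi libraries. Heme is made from glycine and succinyl-CoA in steps shared between mitochondria and cytosol. Of 9 heme synthesis genes, 5 fell and 0 rose in edgeR, with 2 higher at an unadjusted p under 0.05 and 1 called higher in limma-voom and in DESeq2. Alas1, the rate-limiting step outside red cells, was at 213 to 360 cpm in GUCY2Cmed and 61.4 to 129 cpm in GUCY2Chi libraries and fell by 1.61 (SE 0.23, adjusted p = 4.11e-04 from edgeR). Ppox fell by 1.14, Alad by 1.05 and Cpox by 0.98, the highest adjusted p of these 3 being 0.00371. Fech, which inserts the iron, was at -0.44 (adjusted p = 0.0304), and Alas2, the erythroid form, had 0.908 to 2.62 cpm in GUCY2Chi and 0 to 0.514 cpm in GUCY2Cmed libraries (adjusted p = 0.0147). Alas2 passed the filter on low counts only through GUCY2Chi libraries. Of the red cell markers, which include Alas2, 0 of 4 tested passed in edgeR, and 1, Alas2 itself, was higher at an unadjusted p under 0.05. In limma-voom and in DESeq2 1 was called higher. Hba-a1, Hba-a2 and Hbb-bs had log2 fold changes of 0.24, -0.076 and 0.42 (adjusted p = 0.902, 0.971 and 0.779 from edgeR). Slc4a1 was at 0, and the list summed to 1.68 to 58.8 cpm in GUCY2Chi and 1.85 to 22.0 cpm in GUCY2Cmed libraries. With the mouse number as a block, 2 of the 5 heme synthesis genes, Alas1 and Cpox, were called. Of 10 fits that each left out a library, Alas1 kept its call in 10, Alad in 8, Cpox in 6 and Ppox in 4, and the last 3 were all lost without the GUCY2Chi library of mouse 2.

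Heme breakdown and transport held 1 gene that rose and 3 that fell among 8. Slc48a1 (HRG1), which moves heme out of lysosomes, was at 11.7 to 20.7 cpm in GUCY2Cmed and 48.8 to 77.1 cpm in GUCY2Chi libraries and rose by 1.81 (SE 0.19, adjusted p = 5.92e-05 from edgeR). It kept its call in all 10 fits that left out a library. The biliverdin reductase genes Blvra and Blvrb fell by 1.17 (adjusted p = 0.00188) and 1.01 (0.00673), and Abcg2, an exporter of heme precursors, by 0.83 (0.00683). Of these, Blvra kept the call in 10 of 10 such fits, Blvrb in 2 and Abcg2 in 1, and Abcg2 did not pass with the block (adjusted p = 0.0107). Without mice 12 and 15, Blvrb (0.0166) and Abcg2 (0.0252) did not pass. Flvcr1, a heme exporter, had 40.5 to 67.3 cpm in GUCY2Cmed and 4.51 to 26.4 cpm in GUCY2Chi libraries, with no overlap but an adjusted p of 0.0123, and it passed with the block (-2.45, adjusted p = 0.00959).

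**Figure D5:**
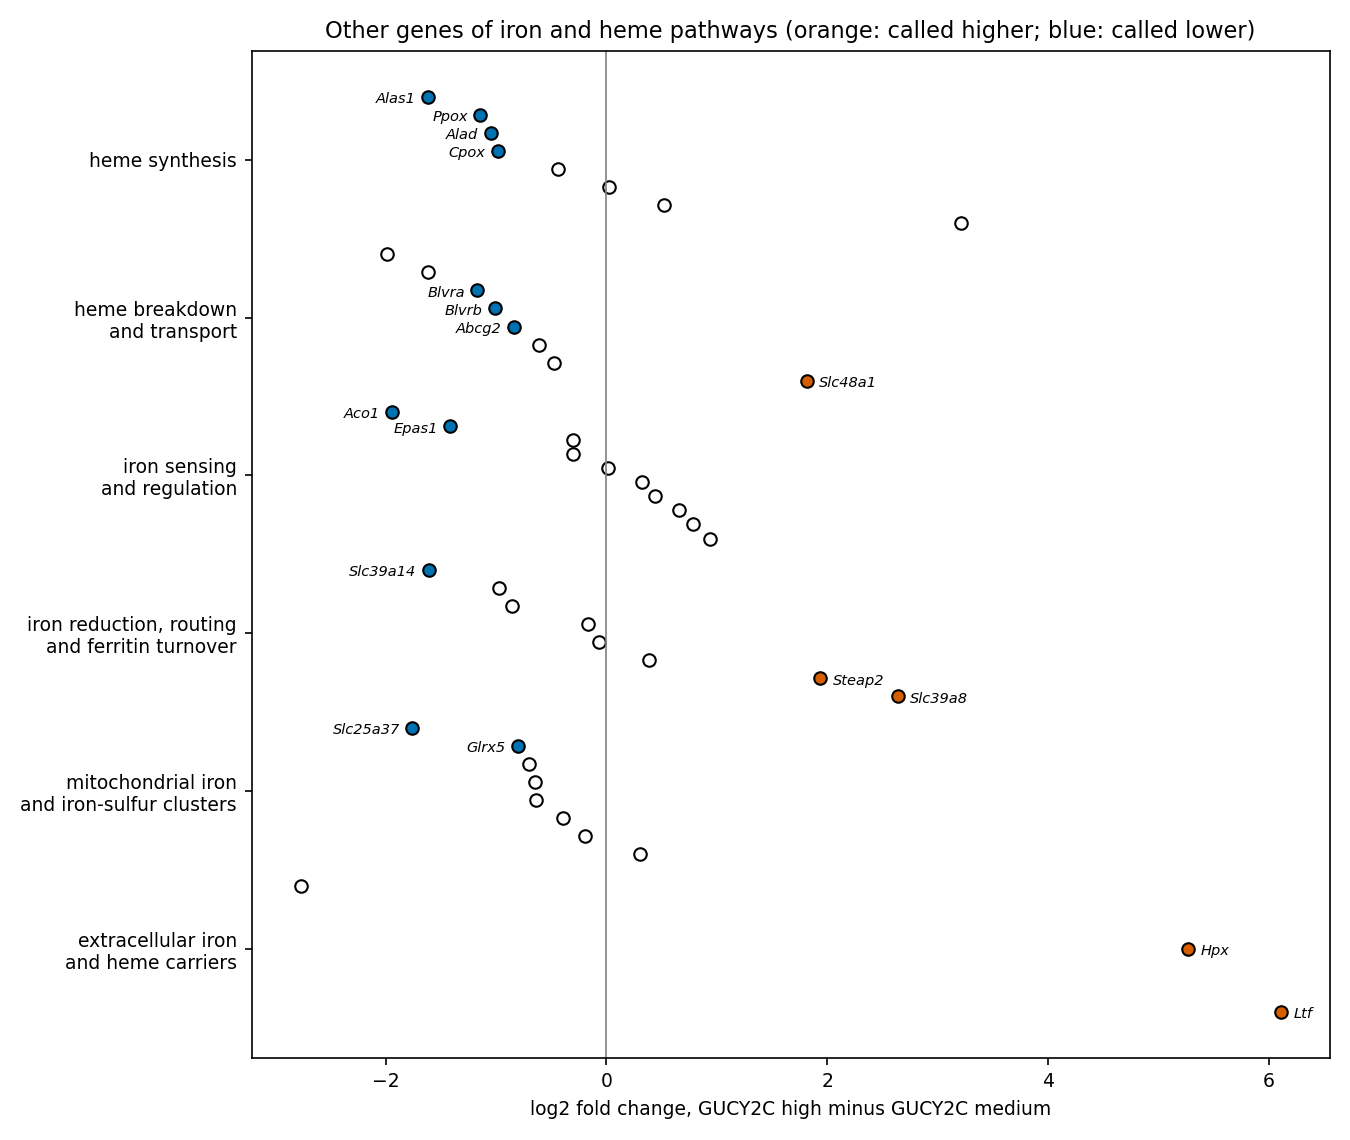
Log2 fold change (GUCY2C high minus GUCY2C medium, edgeR) of 45 tested genes in 6 pathway lists, each point a gene. Filled points passed an adjusted p of 0.01: 12 blue points lie below 0, 4 of them in heme synthesis, and 5 orange points, Slc48a1, Steap2, Slc39a8, Hpx and Ltf, lie above 0.

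Of the genes that sense iron and oxygen, 2 of 10 tested fell and 0 rose in edgeR, with 2 higher at an unadjusted p under 0.05, 0 called higher in limma-voom and 1 in DESeq2. Aco1, the cytosolic aconitase that becomes iron regulatory protein 1 when it loses its iron-sulfur cluster, was at 255 to 373 cpm in GUCY2Cmed and 39.6 to 133 cpm in GUCY2Chi libraries and fell by 1.94 (SE 0.36, adjusted p = 0.00201 from edgeR), in 10 of 10 fits that left out a library. Ireb2, the gene of iron regulatory protein 2, was at 0.44 (adjusted p = 0.178). Epas1 (HIF-2α), a regulator of intestinal iron uptake, fell by 1.41 (adjusted p = 0.00884), but the call held in 1 of those 10 fits and was lost with the block (0.0119) and without mice 12 and 15 (0.0452). Hamp, the gene of hepcidin, did not pass the filter on low counts.

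Among the genes of reduction, routing and ferritin turnover, 2 of 8 tested rose and 1 fell. The metal transporter genes Slc39a8 (ZIP8) and Slc39a14 (ZIP14) differed in opposite directions. Slc39a8 was at 2.70 to 8.22 cpm in GUCY2Cmed and 23.0 to 52.1 cpm in GUCY2Chi libraries and rose by 2.64 (SE 0.34, adjusted p = 2.21e-04 from edgeR), whereas Slc39a14 was at 33.5 to 84.6 and 7.40 to 32.4 cpm and fell by 1.61 (SE 0.38, adjusted p = 0.00663). Steap2, a ferrireductase, rose by 1.94 (SE 0.41, adjusted p = 0.00363), from 2.66 to 6.82 cpm in GUCY2Cmed to 8.06 to 34.5 cpm in GUCY2Chi libraries. Slc39a8 and Steap2 kept their calls in 10 of 10 fits that left out a library, Slc39a14 in 4. Steap2, Slc39a8 and Slc39a14 all passed with the block as well. Ncoa4, the receptor that takes ferritin to lysosomes, was at -0.86 (adjusted p = 0.0351), and Steap4 did not pass the filter.

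In the mitochondrial list 2 of 9 tested genes fell and 0 rose in edgeR, where 0 were higher even at an unadjusted p under 0.05, and 0 rose in limma-voom and DESeq2. Slc25a37 (mitoferrin 1), which imports iron, was at 11.2 to 18.0 cpm in GUCY2Cmed and 2.62 to 6.11 cpm in GUCY2Chi libraries and fell by 1.76 (SE 0.28, adjusted p = 8.58e-04 from edgeR), and Glrx5, which hands on iron-sulfur clusters, fell by 0.80 (adjusted p = 0.00699). Slc25a37 kept its call with the block (adjusted p = 0.00748) and in 10 of 10 fits that left out a library, and Glrx5 did not pass with the block (0.0200) and kept the call in 2. The scaffold gene Iscu was at -0.19 (adjusted p = 0.358), and Ftmt was not tested.

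Carriers outside the cell gave 2 of the 5 genes that rose. Ltf (lactoferrin, an iron-binding protein of secretions) had 0.171 to 0.723 cpm in GUCY2Cmed and 10.3 to 74.4 cpm in GUCY2Chi libraries, a log2 fold change of 6.11 (SE 0.70, adjusted p = 1.01e-04 from edgeR). Hpx (hemopexin, a heme-binding plasma protein) had 0 to 0.751 cpm in GUCY2Cmed and 3.09 to 9.69 cpm in GUCY2Chi libraries. Its log2 fold change was 5.26 (SE 0.98, adjusted p = 0.00197 from edgeR), and 9.44 without the GUCY2Cmed library of mouse 14. Hpx did not pass without mice 12 and 15 (adjusted p = 0.0193). Both Ltf and Hpx passed the filter on low counts only through GUCY2Chi libraries, so they could be called only as higher. Of the other carriers, Lcn2 was tested (adjusted p = 0.0285), and Trf, Cp and Hp did not pass the filter.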

How the data were processed

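RNA-seq covered 10 libraries, 5 of GUCY2Chi and 5 of GUCY2Cmed cells, grouped by the sample labels. The authors deposited raw counts of reads for each gene, which their sequencing provider obtained after STAR alignment of read pairs. FPKM values, deposited in the same table, were used for levels only, since the lengths they imply are shorter than the gene lengths listed beside them for 7 of the 9 genes. The deposited gene length, another column of the authors' table, served as an alternative per-length scale. The submitters' notes name mm9, whereas all 9 genes lie where RefSeq places them on GRCm38, which was used for positions. A set of 10 further normalized columns was not used, nor was the authors' comparison by limma 3.40.6 and edgeR 3.26.8, which holds fold changes and p-values.

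Counts were fitted in R 4.3.3 with edgeR 4.0.16 (quasi-likelihood test, TMM factors, more than 0.5 cpm required in 3 or more libraries, no term for the mouse, Benjamini-Hochberg adjusted p under 0.01). Alternatives were limma-voom (limma 3.58.1), DESeq2 1.42.0, the mouse number as a replicate block in edgeR and limma-voom, library size only, RLE factors, omission of the filter, a minimum of 10 counts in all libraries, fits without 1 library each, a fit without mice 12 and 15, ferritin pseudogene counts added, and a threshold of 0.05. Exact two-sided permutation tests used log2(cpm + 0.5), or + 1 as an alternative. Python 3.11.15 (scipy 1.17.1, pandas 2.3.3, matplotlib 3.10.9, numpy 2.4.6) served for tables and figures. The fits were tested on simulated data. The biological coefficient of variation was 0.458.

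The same numbers in both groups were taken as the same mouse, since each of 5 mice was sorted into both gates. The deviations of same-numbered libraries from their group means correlated at -0.074, -0.173, 0.270, -0.101 and 0.050 for mice 2, 7, 12, 14 and 15. Of the 5 GUCY2Chi libraries, 1, that of mouse 12, deviated most like the GUCY2Cmed library of its own number. The pairing thus rests on the numbers and is not shown by these values. Replicates are separate mice.

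The 9 genes, the pathway and marker lists, the tests and the alternatives were chosen with earlier results of these data known. Named genes are the 9, from each list up to 4 called genes with the largest change and a mean of at least 5 cpm, genes not tested, and the 3 genes most like each of the 9. Epas1 and Hpx, called but outside that rule, and the uncalled list genes given with values were named after their values were seen. A few genes are counted in the lists but not reported by name here. Cybrd1 and Hmox1 rest on few reads.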

Additional observations from a re-analysis of the deposited data

Results flagged for a closer look

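In each group of 5 libraries, the gap of the highest or lowest library to its neighbour was set against the whole range, for 24 genes and 48 groups. A gap above 0.71 of the range marked 4 groups. For normally distributed values chance marks about 1 group in 20. The cpm were not log-transformed here and the groups share libraries, so the 4 cannot be weighed against that rate. Cybrd1 was marked in both gates of mouse 15, with 3.09 cpm in GUCY2Chi cells (next library 1.23 cpm) and 4.54 cpm in GUCY2Cmed cells (next library 1.28 cpm). Hmox1 was marked in the GUCY2Cmed library of mouse 7 at 1.20 cpm, the next being 0.576 cpm. Cpox, of heme synthesis, was marked in the GUCY2Cmed library of mouse 15 at 124 cpm, the next being 91.9 cpm. What sets these libraries apart was not tested.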

How the results depend on the processing

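All log2 fold changes of the 9 genes other than Cybrd1 kept their direction in every alternative that tested them. A minimum of 10 counts in every library removed Hmox1 and Cybrd1 before the test. Cybrd1 reached 0.0082 with library size only and 0.49 without the GUCY2Cmed library of mouse 15. Slc40a1 passed in limma-voom (-1.92), DESeq2 (-1.505), with the replicate block in edgeR (-1.92) and limma-voom (-1.93), without mice 12 and 15 (-2.61) and at 0.05 (-1.54). Fth1 passed in limma-voom (-1.95), DESeq2 (-1.64), with the block in limma-voom (-1.97), without mice 12 and 15 (-2.51) and at 0.05 (-1.66). Slc46a1 passed in limma-voom (-3.23), with the block in limma-voom (-3.26) and without mice 12 and 15 (-4.78), Ftl1 in DESeq2 (-0.64), and Hmox1 at 0.05 (1.495). The genes of the 9 called lower were then 6 in limma-voom, DESeq2, the block in limma-voom and without mice 12 and 15, and 5 at 0.05, where 1 was called higher. More of all genes were called lower as well, 11.4% in limma-voom and 10.7% without mice 12 and 15, beside 8.79% in the main fit. For the block in limma-voom this share is not given here.

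Leaving out 1 library at a time gave log2 fold changes from -2.03 to -1.26 for Slc40a1, -1.69 to -1.28 for Slc11a2, -0.93 to 0.49 for Cybrd1, -1.998 to -1.53 for Heph, -1.96 to -1.52 for Tfrc, -1.99 to -1.40 for Fth1, -0.75 to -0.51 for Ftl1, 1.14 to 1.84 for Hmox1 and -3.06 to -1.80 for Slc46a1. It gave 1 to 5 of the 9 genes called lower, 1 without either library of mouse 2 or the GUCY2Cmed library of mouse 15 and 5 without the GUCY2Chi library of mouse 15. Over all genes it gave 1636 to 2534 higher and 512 to 1609 lower, the fewest lower without the GUCY2Chi library of mouse 2.

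Heme synthesis genes called lower were 2 with the block in edgeR and with library size only, and 1 to 5 with 1 library left out, the 1 without the GUCY2Chi library of mouse 2. Called higher were 2 with library size only, 1 in limma-voom, DESeq2, the block in limma-voom and at 0.05, and 0 to 1 with 1 library left out. Heme breakdown and transport genes called lower were 6 in DESeq2, 7 at 0.05, 1 with library size only and with at least 10 counts in every library, and 1 to 3 with 1 library left out. Iron sensing genes called lower were 1 with the block in edgeR, library size only, no filter, at least 10 counts, and without mice 12 and 15, and 1 to 2 with 1 library left out. Called higher were 1 in DESeq2, with library size only and with at least 10 counts, 2 at 0.05, and 0 to 1 with 1 library left out. Routing genes called lower were 0 with library size only and with at least 10 counts, 2 at 0.05, and 0 to 1 with 1 library left out. Mitochondrial genes called lower were 4 in DESeq2 and at 0.05, 1 with the block in edgeR and limma-voom, library size only, no filter and at least 10 counts, and 1 to 2 with 1 library left out. Carriers called higher were 0 with at least 10 counts, a filter that removed Ltf and Hpx before the test, and 1 without mice 12 and 15, and called lower 1 at 0.05. Over all genes, 1294 were higher and 779 lower with the block in edgeR, 3367 and 2767 at 0.05, 2235 lower in DESeq2 and 557 lower with library size only. The median log2 fold change of all genes was 0.094, 0.39 with library size only and 0.21 without a filter. In edgeR the block changed the call of 1 of the 9 genes, Slc40a1.

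Per kilobase of the listed gene length, Slc11a2 took place 7 and Heph place 5 in both groups, the ratio of Fth1 to Ftl1 was 2.94 in GUCY2Chi and 6.20 in GUCY2Cmed cells, with Fth1 ahead of Ftl1 in all 10 libraries, and that of Tfrc to Fth1 0.00059 and 0.00050. A pseudocount of 1 left every permutation p on the same side of 0.05. For 18 called pathway genes, 257 alternative values kept the call and 83 lost it, none with a change of direction. The 9 of them that lost it without some library all lost it without the GUCY2Chi library of mouse 2. Causes were not tested.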
